A study of Mus musculus with 3 samples.

Results

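The autophagy machinery was followed as 48 genes across 6 cell classes of the aged mouse hippocampus. The genes were taken by symbol from a list that runs from the initiating kinases to the fusion machinery, and all 48 were found among the 31053 genes of the count tables. The cells came from wild-type C57BL/6 mice labelled 2 years old, in 3 single-cell RNA-seq libraries of 10x 3′ chemistry that form 1 group with no treatment, although replicate 3 is titled as 25 months. Tissue was digested with papain at about 20 units/ml and depleted of myelin, and the series text names 6 hippocampi without saying which animals went into which library. With a single group, the comparisons are between cell classes of the same libraries. The p-values set class differences against their variation from library to library, which may be technical.

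A barcode was put in a class when it held at least 1 UMI (unique molecular identifier, 1 counted molecule) of all 3 markers of that class and not all 3 of any other. The markers were Cldn5, Flt1 and Pecam1 for endothelial cells, Slc1a2, Aqp4 and Gja1 for astrocytes, and Cx3cr1, P2ry12 and C1qa for microglia. Ependymal cells were taken by Ccdc153, Tmem212 and Foxj1, pericytes by Vtn, Kcnj8 and Abcc9, and oligodendrocyte precursor cells (OPCs) by Pdgfra, Cspg4 and C1ql1. None of these is among the 48 genes. Of 12100 barcodes that passed the filters, 8211 (67.9%) fell in 1 class: 4222 endothelial cells, 1780 astrocytes, 1641 microglia, 248 ependymal cells, 213 OPCs and 107 pericytes. Barcodes with all 3 ependymal and all 3 astrocyte markers, 152, 18 and 279 in replicates 1, 2 and 3, were left out by this rule. Their median depth was 10037.5, 14060.5 and 12056 UMIs, against 3640 and 2999 in the ependymal class of replicates 1 and 3. Per 1000000 UMIs they held 3561, 3503 and 3919 of the ependymal markers, against 4649 and 4630 in that class. Of the astrocyte markers they held 1672, 1256 and 1261, against 936 and 897 in that class and 14708.5, 13702 and 12371 in astrocytes. By these levels they were nearer the ependymal than the astrocyte class. The ependymal class was smaller, with 77 and 163 barcodes. Whether the left-out barcodes are ependymal cells was not tested.

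Macroautophagy wraps cytoplasm in a double membrane, the autophagosome, and delivers it to the lysosome. The Ulk kinase complex starts the process, a lipid kinase complex around Becn1 and Pik3c3 marks the site, and Atg9a with the Atg2 and Wipi proteins supplies membrane. A conjugation system then couples small Atg8 proteins (the LC3 and GABARAP families) to lipid, cargo receptors tie cargo to them, and SNARE proteins with Rab7 and the HOPS tethering complex fuse the vesicle with the lysosome. In the brain the pathway is best known for clearing protein aggregates and worn mitochondria.

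Replicates 1, 2 and 3 held 45716237, 7185668 and 40377042 UMIs over 7241, 1062 and 6456 barcodes. Replicate 2 gave only 8 ependymal cells, which were not used (ependymal n = 2), and 10 OPCs. Pericytes numbered 17 to 48 per library, and 30 of the 48 genes had under 15 UMIs in all pericytes together, as 16 did in ependymal cells. Levels are given as CPM, the UMIs of a gene scaled to a total of 1000000 per library and class. Each class held its own marker list at 2575 to 20260.5 CPM on average, against at most 917 in any other class. These same markers set the classes, so this gap follows in part from the rule. A count of 0 among the 73004 UMIs of OPC replicate 2, seen for 10 of the 48 genes, allows up to 41.1 CPM (3 counts, counting error only). Markers of other cells were also present: fibroblast genes made up 585, 2863 and 703 CPM in pericytes, border macrophage genes 1418, 19.7 and 29.6, and fibroblast genes 14.9, 460.5 and 9.81 in astrocytes (replicates 1, 2 and 3). Smooth muscle genes made up 535 and 684 in ependymal cells (replicates 1 and 3), and neuronal genes 98.5, 151 and 73.7 in OPCs. Several of these sums rested mostly on 1 gene. In ependymal cells Acta2 had 483 and 585 and Myh11 2.91 and 0. In OPCs Snap25 averaged 94 and Rbfox3 0. In pericyte replicate 1 the fibroblast sum was Dcn alone, and Pf4 made up 1300 of the macrophage sum. In pericyte replicate 2 Dcn, Col1a1 and Lum were all present, at 2014, 434 and 415. The part of other cells in the levels below was not tested. Haemoglobin reached 15361 CPM in endothelial cells, against 380.4 to 1012 in the other classes. Libraries shared 3, 12 and 2 barcodes pairwise, of which 1, 6 and 0 were in a class.

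Together the 48 genes took the largest share of UMIs in ependymal cells and the smallest in astrocytes. The summed level was 3844 and 3936 CPM in ependymal cells (replicates 1 and 3) and 3725, 3583 and 3374 in endothelial cells. It was 3422, 2823 and 3100.1 in pericytes, 3084, 3082 and 3146 in OPCs and 3081, 2926 and 2752 in microglia. Astrocytes had 2573, 2483 and 2797. No ependymal or endothelial library overlapped a microglial, astrocyte or OPC library, while the pericyte libraries overlapped the endothelial, microglial and OPC ones. Most of the ependymal sum was Atg8 transcript, 2223 ± 1.93 CPM (SD, n = 2), against 1067 ± 26.1 in microglia (SD, n = 3). When the left-out barcodes with all ependymal and all astrocyte markers counted as ependymal, the mean ependymal sum was 3658, against 3561 in endothelial cells. That alternative was chosen after seeing the data.

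Nearly all the genes differed between classes somewhere. An edgeR quasi-likelihood F test over the classes passed an adjusted p of 0.05 for 40 of the 48, where 91.2% of all 12525 tested genes passed. The 8 that did not pass were Ambra1, Atg2b, Atg4c, Atg4d, Atg7, Epg5, Vps11 and Vps16. The share of the 48 is thus no higher than that of genes at large, and what follows is which genes differed and where.

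**Figure D1:**
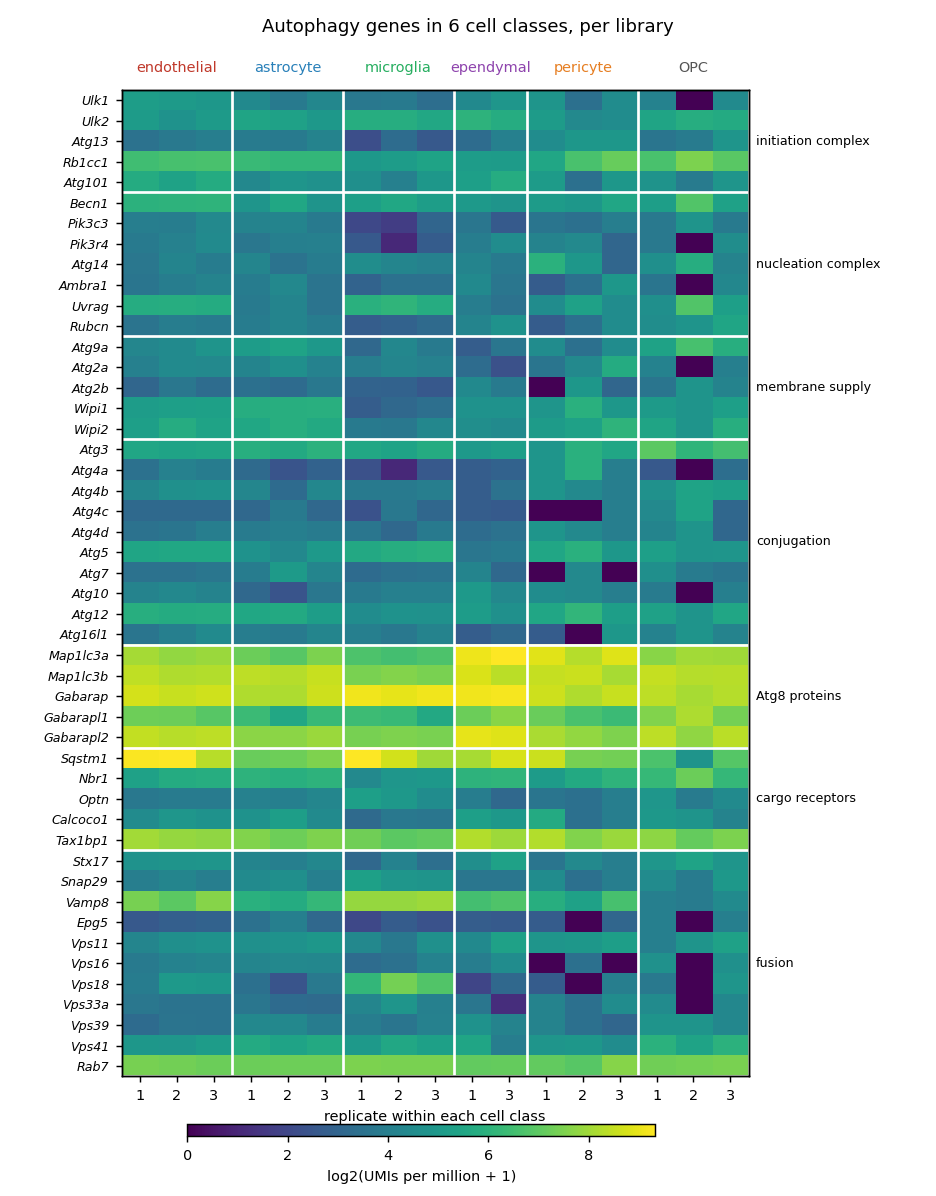
Levels of the 48 genes as log2(CPM + 1), 1 row per gene grouped by role and 1 column per library and class; ependymal cells have replicates 1 and 3. The Atg8 rows are bright in ependymal cells, Vps18 and Vamp8 stand out in microglia, and the dark cells of OPC replicate 2 are counts of 0 among 10 cells.

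For each class, the edgeR contrast set the class against the unweighted mean of the other 5, with TMM scaling and the library as a block. Microglia have the lowest TMM factors (mean 0.658) and OPCs the highest (1.420), so a fold change on that scale can part from a plain ratio of CPM values. Without a scaling factor the median change of all genes was -0.70 in microglia, against 0.03 with TMM, and 0.53 in OPCs, against -0.03. Calls are therefore given for TMM first and then for those that passed the same way with no scaling factor, here called both scales. A CPM level is a share of all UMIs, and ribosomal protein genes alone took 158693 CPM in microglia, against 40794 in astrocytes. Mitochondrially encoded genes went the other way, with 27781 CPM in microglia and 110401 in astrocytes.

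In endothelial cells 21 of the 48 genes were higher than in the other classes and none was lower, where 32.5% of all genes were higher and 18.6% lower. On both scales 14 were higher, against 23.6% of all genes. The absence of lower calls in endothelial cells moved with the setting. With no scaling factor 14 were higher and 2 lower, where 2962 and 3148 of 12525 genes were. RLE scaling gave 15 and 2, where 3017 and 3147 of 12525 genes were. DESeq2 gave 15 and 2, where 3217 and 5242 of 21247 genes were. In microglia 19 were higher and 7 lower, where 32.4% and 23.2% of all genes were, and on both scales 10 were higher and 7 lower (18.1% and 23.2% of all genes). This balance rested on the scaling. With no scaling factor 10 were higher and 22 lower in microglia, where 2272 and 5744 of 12525 genes were. Astrocytes had 9 higher and 5 lower, with 30.3% and 18.5% of all genes, and 5 and 5 on both scales (26.3% and 18.5%).

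The smaller classes gave fewer calls. In ependymal cells 4 of the 48 genes were higher and 11 lower, where 23.1% and 16% of all genes were, and on both scales 4 and 10 (23.1% and 13.1%). This balance moved with the setting, as did that of all genes. With RLE scaling 8 were higher and 7 lower, where 3354 and 1474 of 12525 genes were. DESeq2 gave 9 and 5, where 3648 and 1323 of 21247 genes were. Counts were 13 and 11 when barcodes with all ependymal and all astrocyte markers counted as ependymal (an alternative chosen after seeing the data). There 4336 of 13130 genes were higher and 2705 lower. OPCs had 3 higher and 9 lower, with 23.4% and 19.6% of all genes, but only 3 and 3 on both scales (23.4% and 10%). With no scaling factor 13 were higher and 3 lower in OPCs, where 5198 and 1255 of 12525 genes were. Pericytes had 2 higher and 5 lower, with 10.1% and 9.8% of all genes, and 2 and 0 on both scales (10.1% and 3.47%). The median log2 change of the 48 genes was 0.42 in endothelial cells and 0.34 in microglia, against 0.10 and 0.03 over all genes. With no scaling factor these medians were 0.17 and -0.40, against -0.15 and -0.70 over all genes.

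**Figure D2:**
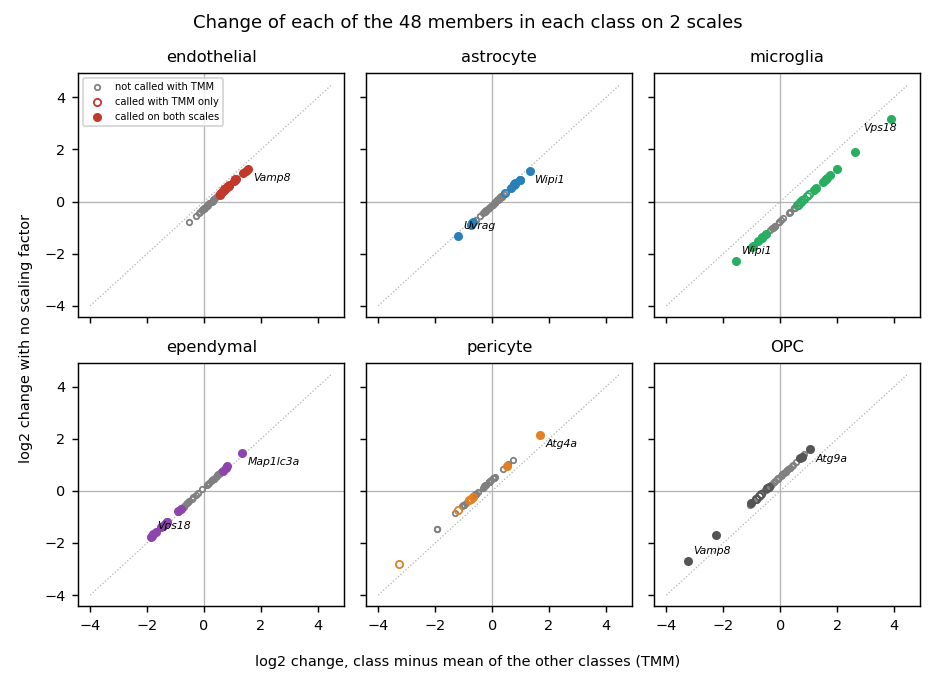
Change of each of the 48 genes in each class against the mean of the other classes, with TMM scaling (horizontal) and with no scaling factor (vertical), both log2; filled points passed on both scales, open coloured points with TMM alone, and the dotted line marks equal values. The microglial points lie below the line and the OPC and pericyte points above it, while Vps18 and Vamp8 stay far from 0 on both axes.

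Of the 5 genes of the initiation complex, 3 were higher in endothelial cells than in the other classes, where 32.5% of all genes were. Ulk1, the kinase at its head, had 35.3, 32.9 and 29.7 CPM in endothelial replicates 1, 2 and 3, against a mean of 17.3 over the other classes (log2 change 1.1 ± 0.19 (SE), edgeR adjusted p = 1.55e-05). Every endothelial library lay above every library of the other classes. Atg101, which steadies Atg13, averaged 48.9 ± 7.0 in endothelial cells and 28.1 in the other classes (log2 change 1.11 ± 0.16 (SE), edgeR adjusted p = 1.6e-06). Rb1cc1, the large scaffold also known as FIP200, had 88.7, 96.6 and 100.4 in endothelial cells, against 74.3 in the other classes (log2 change 0.86 ± 0.14 (SE), edgeR adjusted p = 1.11e-05). All 3 calls held on both scales.

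Rb1cc1 was low in ependymal cells, with 34.9 and 34.2 CPM in replicates 1 and 3, against 86.5 in the other classes (log2 change -1.3 ± 0.27 (SE), edgeR adjusted p = 0.000297). Leaving out replicate 3, which leaves 1 ependymal library, ended that call. Microglia had 30.7, 34.7 and 41.9, a range that overlaps the ependymal one, while the 3 OPC libraries had 98.5, 178 and 121. Ulk2, the second kinase, was higher in microglia at 55.6, 54.8 and 47, against 40.4 in the other classes (log2 change 1.19 ± 0.15 (SE), edgeR adjusted p = 1.05e-07). Ependymal cells had more of it still, 64 and 53.9, and the edgeR difference of microglial minus ependymal Ulk2 was 0.57 with TMM and -0.15 with no scaling factor. Atg13, the adaptor of the complex, was lower in microglia at 3.69, 8.95 and 5.1, against 16.9 (log2 change -1.0 ± 0.27 (SE), edgeR adjusted p = 0.00254), and this call was lost without replicate 3.

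In the nucleation complex, Uvrag divided the classes most. Uvrag binds Becn1 in the form of the complex that acts on late vesicles and endosomes. It had 59.1, 67.2 and 53.5 CPM in microglia, against 33.1 in the other classes (log2 change 2.01 ± 0.17 (SE), edgeR adjusted p = 8.27e-11), and 54, 54.8 and 52.8 in endothelial cells, against 34.3 (log2 change 1.35 ± 0.17 (SE), edgeR adjusted p = 1.37e-07). Astrocytes had 13.4, 17.4 and 11, against 42.3 (log2 change -1.2 ± 0.23 (SE), edgeR adjusted p = 8.19e-05), and ependymal cells 14.5 and 10.5, against 42.6 (log2 change -1.51 ± 0.39 (SE), edgeR adjusted p = 0.00273). All 4 calls held on both scales. No microglial or endothelial library overlapped an astrocyte or ependymal one, and OPCs spread widely with 24, 109.6 and 37.8, the highest value coming from the 10 cells of replicate 2.

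Becn1, the scaffold of the complex, was higher in endothelial cells at 62.5, 64.1 and 66 CPM, against 40.2 in the other classes (log2 change 1.08 ± 0.15 (SE), edgeR adjusted p = 5.84e-07). Its microglial levels of 37.2, 45.9 and 36 were called higher with TMM (log2 change 0.71 ± 0.16 (SE), edgeR adjusted p = 0.000542), although the mean of the other classes was 45.1, and the log2 change was -0.04 with no scaling factor. Becn1 overlaps Cntd1 on the opposite strand. Pik3c3, the lipid kinase itself, had 15, 14.7 and 20 in endothelial cells, against 11.6 (log2 change 1.04 ± 0.25 (SE), edgeR adjusted p = 0.000836), and its partner Pik3r4 was low in microglia at 5.07, 1.12 and 5.57, against 15.2 (log2 change -0.97 ± 0.30 (SE), edgeR adjusted p = 0.00801). The Pik3r4 call was lost without replicate 3. Rubcn, an inhibitor of late autophagy steps, was higher in OPCs at 22.7, 27.4 and 43.5, against 13.9 (log2 change 0.77 ± 0.29 (SE), edgeR adjusted p = 0.0377), and leaving out any 1 replicate ended that call.

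Of the 5 genes of membrane supply, 3 were higher and none lower in astrocytes (30.3% and 18.5% of all genes). Endothelial cells also had 3 higher and none lower (32.5% and 18.6%). In microglia 2 were lower and 1, Atg2a, was higher with TMM alone (23.2% and 32.4% of all genes with TMM). Ependymal cells had 3 lower and none higher (16% and 23.1%). Wipi1 and Wipi2 were called higher in astrocytes and lower in microglia. On both scales they were also higher in endothelial cells, and Wipi2 was lower in ependymal cells. The summed level of the 5 genes was 172 ± 12.6 CPM in astrocytes and 58.4 ± 8.65 in microglia (SD, n = 3 each). Wipi1, which reads the lipid mark at the forming membrane, had 55, 56.5 and 57.5 in astrocytes, against 28.5 in the other classes (log2 change 1.31 ± 0.16 (SE), edgeR adjusted p = 6.25e-08). Microglia had 5.68, 7.84 and 9.56, against 38.3 (log2 change -1.54 ± 0.20 (SE), edgeR adjusted p = 2.48e-07). In the 15 pairwise contrasts, microglial Wipi1 was below each of the other 5 classes on both scales, as 3.18% of all genes were, and astrocyte Wipi1 was above each of the others with TMM and above 4 of the 5, all but pericytes, on both scales.

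Wipi2 followed the same pattern, with 46.6, 56.5 and 50.4 CPM in astrocytes, against 34 in the other classes (log2 change 0.78 ± 0.17 (SE), edgeR adjusted p = 0.000383), and 13.1, 12.3 and 19 in microglia, against 41.3 (log2 change -0.63 ± 0.19 (SE), edgeR adjusted p = 0.00632). Atg9a, the membrane protein whose vesicles seed the autophagosome, was high in astrocytes and in OPCs. It had 34.3, 41.3 and 30.1 in astrocytes, against 25.4 (log2 change 0.96 ± 0.20 (SE), edgeR adjusted p = 0.000241), and 40.4, 95.9 and 56.7 in OPCs, against 19.6 (log2 change 1.05 ± 0.26 (SE), edgeR adjusted p = 0.00169). Ependymal cells had only 5.82 and 11.8, against 30.7 (log2 change -1.44 ± 0.42 (SE), edgeR adjusted p = 0.00765), a call lost without either of their 2 libraries. Atg2a, a lipid transfer protein, was also lower in ependymal cells at 8.72 and 3.94, against 18.5 (log2 change -1.84 ± 0.54 (SE), edgeR adjusted p = 0.00731), and that call was lost without replicate 3.

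Within the conjugation system, Atg5 separated the classes most clearly. Atg5 is coupled to Atg12 and helps to attach Atg8 proteins to lipid. It had 48.7, 54.8 and 59.2 CPM in microglia, against 31.8 in the other classes (log2 change 1.6 ± 0.16 (SE), edgeR adjusted p = 1.24e-09), and 43.2, 46.1 and 45.6 in endothelial cells, against 33.6 (log2 change 0.81 ± 0.16 (SE), edgeR adjusted p = 9.33e-05). Ependymal cells had 11.6 and 13.1, against 40.2 (log2 change -1.78 ± 0.34 (SE), edgeR adjusted p = 0.000124). Ependymal Atg5 was below each of the other 5 classes in pairwise contrasts on both scales, as 0.806% of all genes were, and no ependymal library overlapped a library of another class.

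Atg3, the enzyme that hands Atg8 proteins to lipid, was high in OPCs at 126, 68.5 and 92.7 CPM, against 45 in the other classes (log2 change 0.69 ± 0.19 (SE), edgeR adjusted p = 0.00382), and this call was lost without replicate 1. Atg12 was higher in endothelial cells at 56.8, 52.9 and 54.4, against 37.2 (log2 change 0.86 ± 0.14 (SE), edgeR adjusted p = 9.46e-06). Atg7, which activates Atg8 proteins and Atg12, had 14.1, 32.6 and 17.9 in astrocytes, against 11.3 (log2 change 0.96 ± 0.31 (SE), edgeR adjusted p = 0.0109). The Atg7 call was lost without replicate 3, and Atg7 is among the 8 genes that did not pass the F test. Atg10, the enzyme that joins Atg12 to Atg5, was lower in astrocytes at 7.96, 4.34 and 12.1, against 17.5 (log2 change -0.74 ± 0.26 (SE), edgeR adjusted p = 0.021), lost without replicate 1. The protease Atg4a, which trims and recycles Atg8 proteins, had 28.1, 59.2 and 14.8 in pericytes from 13 UMIs in all, against 6.91 (log2 change 1.69 ± 0.55 (SE), edgeR adjusted p = 0.0297), lost without replicate 1 or without replicate 2.

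**Figure D3:**
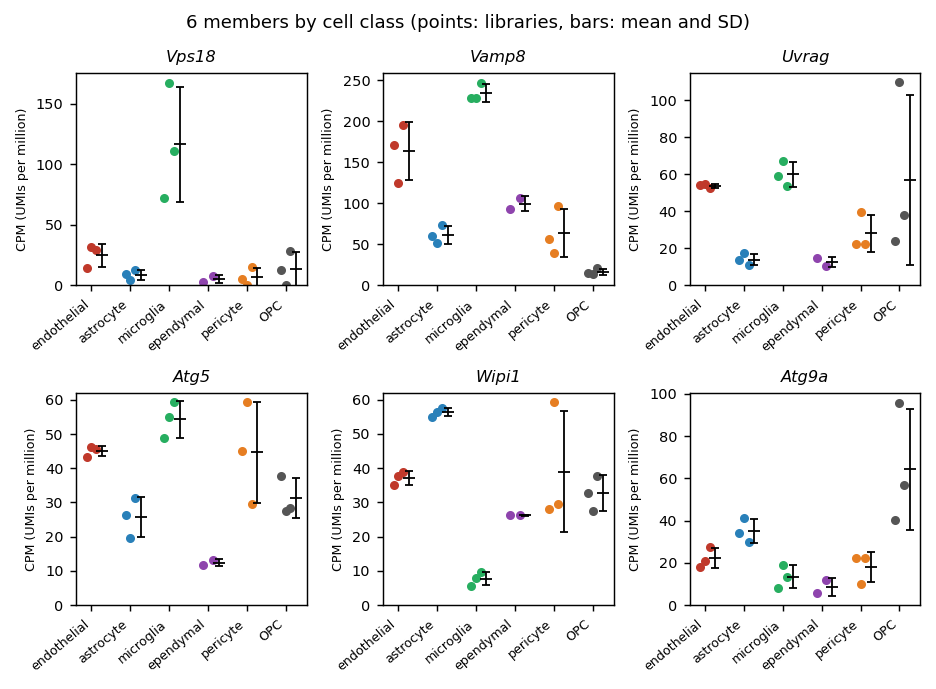
CPM of Vps18, Vamp8, Uvrag, Atg5, Wipi1 and Atg9a in each class; points are libraries and bars the mean and SD (n = 3, ependymal n = 2). Vps18 is near 116 in microglia and at most 25 on average elsewhere, and Wipi1 is highest in astrocytes and lowest in microglia.

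The Atg8 proteins differed between classes in both amount and make-up. Map1lc3a (LC3A) was highest in ependymal cells at 549.5 and 642 CPM, against 231 in the other classes (log2 change 1.33 ± 0.17 (SE), edgeR adjusted p = 3.15e-07). Pericytes followed with 478, 316 and 466, against 266 (log2 change 0.51 ± 0.17 (SE), edgeR adjusted p = 0.0356), a call lost without replicate 1 or without replicate 3. Astrocytes had 149, 119 and 179.6, against 320.4 (log2 change -0.70 ± 0.16 (SE), edgeR adjusted p = 0.000623), and microglia 106, 92.9 and 106, against 330.0 (log2 change -0.77 ± 0.16 (SE), edgeR adjusted p = 0.000171). No ependymal library overlapped another class. Ependymal Map1lc3a exceeded each other class in the pairwise contrasts with TMM, and each but pericytes on both scales.

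Gabarap, the founding member of the other Atg8 branch, was higher in microglia at 563, 499 and 559 CPM, against 392.3 in the other classes (log2 change 1.25 ± 0.14 (SE), edgeR adjusted p = 1.39e-08). It was lower in OPCs at 337, 274 and 310.1, against 439 (log2 change -1.02 ± 0.18 (SE), edgeR adjusted p = 2.7e-05). Ependymal cells had as much as microglia in CPM, 564 and 589, and their contrast did not pass. As a share of the UMIs of the 5 Atg8 genes, Gabarap made up 50.6% ± 2.56 in microglia (SD, n = 3). In the other classes its mean share lay between 22.1% in OPCs and 29.3% in astrocytes. These are 3′ tag counts, which do not scale with transcript length.

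Gabarapl2 (GATE-16) had 509 and 468 CPM in ependymal cells, against 252 in the other classes (log2 change 0.80 ± 0.18 (SE), edgeR adjusted p = 0.000702), lost without replicate 3. Endothelial cells had 352, 323 and 333, against 282 (log2 change 0.61 ± 0.15 (SE), edgeR adjusted p = 0.000845). Gabarapl1 was lower in astrocytes at 81.1, 47.8 and 76.1, against 141 (log2 change -0.70 ± 0.19 (SE), edgeR adjusted p = 0.00287), and higher in ependymal cells at 148 and 201, against 119.9 (log2 change 0.65 ± 0.22 (SE), edgeR adjusted p = 0.0222), lost without replicate 3. Map1lc3b (LC3B), the most used marker protein of autophagosomes, had 174, 194 and 172 in microglia and 336, 315 and 373 in astrocytes. Microglial Map1lc3b was below every library of the other classes in CPM, but its TMM contrast did not pass, and the gene overlaps the readthrough gene model Gm20388 on the same strand, so its counts are uncertain. In OPCs Map1lc3b was called lower with TMM (log2 change -0.41 ± 0.17 (SE), edgeR adjusted p = 0.0474), yet its mean was 333 in OPCs and 313 in the other classes, and with no scaling factor the change was 0.16.

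**Figure D4:**
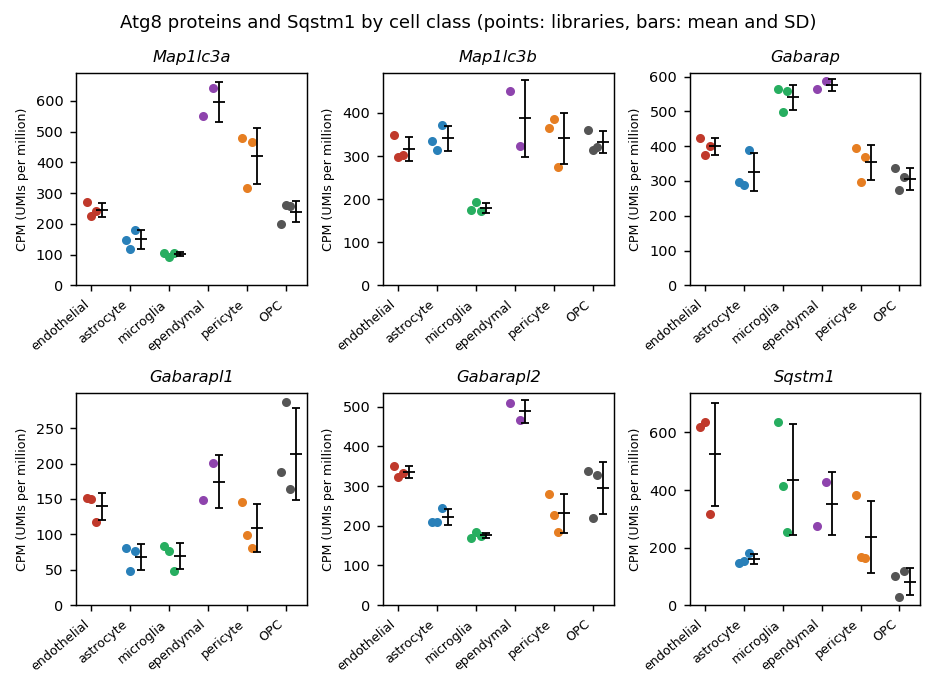
CPM of the 5 Atg8 genes and Sqstm1 in each class; points are libraries and bars the mean and SD (n = 3, ependymal n = 2). Ependymal cells lead for Map1lc3a and Gabarapl2, microglia are lowest for Map1lc3a and Map1lc3b but not for Gabarap, and Sqstm1 spreads widely among endothelial and among microglial libraries.

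Among the cargo receptors, Sqstm1 (p62), which carries ubiquitin-tagged cargo and is itself induced by oxidative stress, differed most in amount. It had 619, 635 and 316 CPM in endothelial cells, against 254 in the other classes (log2 change 1.47 ± 0.24 (SE), edgeR adjusted p = 1.01e-05), and 637, 415 and 254 in microglia, against 271 (log2 change 1.58 ± 0.24 (SE), edgeR adjusted p = 2.34e-06). OPCs had 101, 27.4 and 117, against 342 (log2 change -2.25 ± 0.35 (SE), edgeR adjusted p = 5.57e-06). Astrocytes had 146, 154 and 182, against 326 (log2 change -0.67 ± 0.28 (SE), edgeR adjusted p = 0.0469), a call lost without replicate 1 or without replicate 2. Every OPC library lay below every library of the other classes.

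A list of 14 genes known to respond to tissue dissociation also differed between classes. Its summed level was 45364, 52587 and 42102 CPM in endothelial cells, 44997, 14463 and 17054 in pericytes and 17225 and 28402 in ependymal cells. Microglia had 15880.2, 20954 and 14887, OPCs 8022, 8999.5 and 9422 and astrocytes 3414, 3528 and 1909. Sqstm1 and this list both had their highest mean in endothelial cells, and OPCs, with the lowest Sqstm1, had more of the list than astrocytes. Within endothelial cells the list and Sqstm1 were both highest in replicate 2 and lowest in replicate 3, and within microglia the list was highest in replicate 2 and Sqstm1 in replicate 1. The part of dissociation in the Sqstm1 levels was not tested.

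Optn, a receptor for damaged mitochondria and bacteria, was higher in microglia at 37.5, 30.2 and 22.1 CPM, against 14.8 in the other classes (log2 change 1.76 ± 0.21 (SE), edgeR adjusted p = 3.66e-08). Nbr1, a receptor related to Sqstm1, was lower in microglia at 20.1, 29.1 and 30.3, against 65.5 (log2 change -0.50 ± 0.16 (SE), edgeR adjusted p = 0.0103), and every microglial library lay below every library of the other classes. That call was lost without replicate 1. Calcoco1, a receptor for the endoplasmic reticulum, was lower in microglia too, at 8.45, 12.3 and 11.6, against 27.5 (log2 change -0.65 ± 0.23 (SE), edgeR adjusted p = 0.0177). Tax1bp1, another receptor for tagged proteins, was called higher in endothelial cells at 259, 229 and 217, against 203 (log2 change 0.55 ± 0.14 (SE), edgeR adjusted p = 0.00125), and lower in OPCs at 212, 137 and 179.6, against 214 (log2 change -0.74 ± 0.17 (SE), edgeR adjusted p = 0.000748), both with TMM alone.

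Of the 11 fusion genes, 7 were higher in microglia and none lower with TMM, with a median log2 change of 0.78, against 0.03 over all genes, and 4 of them, Vps18, Vamp8, Snap29 and Vps33a, were higher on both scales. Of all genes 32.4% were higher in microglia with TMM and 18.1% on both scales. Vps18, a core subunit of the HOPS complex (ENSMUSG00000034216.12, chr2:119288740-119298453, plus strand, GENCODE M21 on mm10), had 71.9, 167 and 111 CPM in microglia, from 1312 UMIs. Endothelial cells had 14.1, 31.5 and 29.4, astrocytes 9.78, 4.34 and 12.6 and ependymal cells 2.91 and 7.88, while only 3 UMIs were counted in all pericytes and 25 in all OPCs. Every microglial library lay above every other, at a mean of 116, against 12 in the other classes (log2 change 3.9 ± 0.20 (SE), edgeR adjusted p = 2.87e-15). With no scaling factor the log2 change was 3.17.

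Vamp8, the SNARE on the lysosomal side of fusion (ENSMUSG00000050732.9, chr6:72385223-72390703, minus strand), had 229, 228 and 247 CPM in microglia, against 81.2 in the other classes (log2 change 2.64 ± 0.13 (SE), edgeR adjusted p = 8.95e-16). Endothelial cells had 171, 125 and 195, against 95.4 (log2 change 1.53 ± 0.13 (SE), edgeR adjusted p = 1.7e-10). OPCs had 15.2, 13.7 and 20.8, against 125 (log2 change -3.24 ± 0.25 (SE), edgeR adjusted p = 4.01e-11). In pairwise contrasts on both scales, Vamp8 in microglia was above each of the other 5 classes and in OPCs below each. Vps18 in microglia was above each as well, and these were the only 2 of the 48 genes above each other class on both scales in any class. Of all genes 6.37% were above each other class in microglia, and 0.878% below each in OPCs. The levels of the 3 microglial and the 3 OPC libraries did not overlap any other class.

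The partners of Vamp8 in the fusion SNARE followed it only in part. Snap29 had 38.9, 29.1 and 27.4 CPM in microglia, against 17 in the other classes (log2 change 1.66 ± 0.19 (SE), edgeR adjusted p = 2.37e-08). Stx17, the SNARE on the autophagosome, was instead higher in endothelial cells at 26.4, 27.4 and 28.2, against 21.6 (log2 change 0.74 ± 0.18 (SE), edgeR adjusted p = 0.0010), lost without replicate 1. Ependymal Stx17 was 23.3 and 39.4, against 20.8 (log2 change 0.76 ± 0.30 (SE), edgeR adjusted p = 0.0452), and leaving out any 1 replicate ended that call. In microglia Stx17 had 7.83, 16.8 and 9.71 and did not pass.

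Of the other HOPS subunits, Vps33a, which holds the SNAREs in place, had 18, 28 and 15.6 CPM in microglia, against 11.4 in the other classes (log2 change 1.49 ± 0.26 (SE), edgeR adjusted p = 1.47e-05). Vps41, a subunit particular to HOPS, was higher in astrocytes at 51.1, 41.3 and 50.4, against 36.1 (log2 change 0.67 ± 0.18 (SE), edgeR adjusted p = 0.00357), lost without replicate 3, and in microglia with TMM alone at 30.9, 47 and 38.4, against 37.9 (log2 change 0.78 ± 0.18 (SE), edgeR adjusted p = 0.00068). Vps11 did not differ past the threshold in any class contrast. In ependymal cells Vps18 was lower at 2.91 and 7.88, from 7 UMIs in all, against 34.2 in the other classes. Vps33a was lower there too, at 11.6 and 1.31, against 14.2, and both calls were lost without replicate 3. Rab7, the GTPase of late endosomes, varied little: it averaged 176 ± 3.09 in microglia (SD, n = 3) and 137 ± 3.89 in ependymal cells (SD, n = 2), its highest and lowest means. Its call in microglia (log2 change 0.95 ± 0.13 (SE), edgeR adjusted p = 6.75e-07) held with TMM alone, and its call in OPCs turned to a change of 0.09 with no scaling factor.

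The 250 bases before the transcription start of 4 of these genes are shown because their transcripts parted in microglia: Vps18, Vps33a and Atg5 were higher there, and Vps16, which binds Vps33a directly, was not called. The sequences are RefSeq windows on GRCm38.p6, each written 5′ to 3′ on the gene's strand, with capitals marking CACGTG, the E-box core of the CLEAR element that TFEB family factors bind at lysosomal and autophagy genes.
Vps18 (chr2:119288492-119288741, plus strand): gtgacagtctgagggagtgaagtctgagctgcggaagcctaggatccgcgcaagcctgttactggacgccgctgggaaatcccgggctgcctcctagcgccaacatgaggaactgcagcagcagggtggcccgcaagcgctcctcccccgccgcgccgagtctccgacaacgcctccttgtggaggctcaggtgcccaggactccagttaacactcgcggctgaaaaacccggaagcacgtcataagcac
Vps33a (chr5:123573016-123573265, minus strand): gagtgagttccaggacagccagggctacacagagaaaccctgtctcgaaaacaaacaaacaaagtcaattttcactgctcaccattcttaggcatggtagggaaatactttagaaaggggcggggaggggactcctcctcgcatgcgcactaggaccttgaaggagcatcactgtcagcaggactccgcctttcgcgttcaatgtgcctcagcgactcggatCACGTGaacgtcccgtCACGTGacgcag
Atg5 (chr10:44268089-44268338, plus strand): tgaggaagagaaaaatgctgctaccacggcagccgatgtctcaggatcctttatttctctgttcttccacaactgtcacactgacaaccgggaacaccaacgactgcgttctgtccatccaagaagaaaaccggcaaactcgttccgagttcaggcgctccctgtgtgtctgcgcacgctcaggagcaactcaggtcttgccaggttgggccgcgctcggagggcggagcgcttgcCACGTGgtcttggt
Vps16 (chr2:130424070-130424319, plus strand): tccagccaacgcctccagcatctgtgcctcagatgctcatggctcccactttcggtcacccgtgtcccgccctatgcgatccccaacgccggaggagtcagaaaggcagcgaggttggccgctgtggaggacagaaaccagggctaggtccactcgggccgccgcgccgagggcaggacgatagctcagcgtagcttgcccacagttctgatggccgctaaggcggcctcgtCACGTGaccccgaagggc
Of the 48 genes, 39 had such a window, and CACGTG, sought on both strands, was in 6 of them (15.4%), against 6.86% of 27025 genes. The 6 were Rubcn, Atg3, Atg5, Atg7, Vps16 and Vps33a. The 10 genes higher in microglia on both scales all had a window, and of these only Atg5 and Vps33a held CACGTG. Vps33a holds CACGTG at 2 places. Some genes have several windows, and a match in any of them counted. The Rubcn match is in a window inside the annotated gene (chr16:32868367-32868616), and the window at its annotated start has none. The Atg7 window (chr6:114670846-114671095) also lies inside the annotated gene. GAGGAAGT, the core of the site of the myeloid factor PU.1, was in none of the 39, against 2.79%. The window of Vps18 holds neither motif.

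A second list of 36 autophagy-related genes outside the 48, of which 35 could be tested, also differed by class. With TMM it had 15 genes higher and 3 lower in endothelial cells, 16 and 3 in microglia, 7 and 7 in astrocytes, 5 and 9 in ependymal cells, 0 and 6 in pericytes, and 0 and 13 in OPCs. On both scales 11 were higher and 3 lower in endothelial cells, 10 and 3 in microglia, 5 and 7 in astrocytes, 5 and 8 in ependymal cells, 0 and 2 in pericytes, and 0 and 2 in OPCs. The direction in OPCs rested on the scaling, since 9 genes were higher and 2 lower there with no scaling factor. Of all 12525 genes, 5198 were then higher and 1255 lower in OPCs. In microglia 10 of the list were then higher and 16 lower, where 2272 and 5744 of all genes were. For the TMM and both-scale counts, the shares of all genes are those given above for the same contrasts. Retreg1, a receptor for the endoplasmic reticulum, averaged 208 CPM in microglia and 39.2 in the other classes (log2 change 3.2 ± 0.19 (SE), edgeR adjusted p = 3.52e-14), and 17.2 in astrocytes, against 77.4 (log2 change -1.55 ± 0.27 (SE), edgeR adjusted p = 2.3e-05). Nrbf2, a subunit of the nucleation complex, averaged 73.9 in microglia and 20.8 elsewhere (log2 change 2.63 ± 0.16 (SE), edgeR adjusted p = 1.25e-13), the same class in which Pik3c3 and Pik3r4 were at their lowest means.

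Astrocytes led for Rtn3, a further receptor for the endoplasmic reticulum, at 435 CPM, against 190.2 in the other classes (log2 change 1.36 ± 0.14 (SE), edgeR adjusted p = 4.64e-09), and for Trp53inp2, at 46.9, against 24 (log2 change 1.2 ± 0.19 (SE), edgeR adjusted p = 8.36e-06). Pink1, the kinase that marks damaged mitochondria, averaged 327 in ependymal cells and 103 elsewhere (log2 change 1.64 ± 0.17 (SE), edgeR adjusted p = 6.01e-09), and 59.1 in pericytes, against 156 (log2 change -1.59 ± 0.26 (SE), edgeR adjusted p = 4.03e-05). In endothelial cells Plekhm1, an adaptor between Rab7 and HOPS, averaged 22.6, against 6.79 (log2 change 2.17 ± 0.25 (SE), edgeR adjusted p = 2.33e-08), and Mitf, a relative of TFEB, 4.35, against 16.9 (log2 change -1.7 ± 0.29 (SE), edgeR adjusted p = 1.44e-05). Tfeb itself, a master regulator of lysosomal and autophagy genes, was lower in OPCs at 10.7, against 23.8 (log2 change -1.96 ± 0.40 (SE), edgeR adjusted p = 0.000244). All these calls held on both scales.

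Because the series concerns an astrocyte subtype, the genes were also compared within astrocytes. Astrocytes of at least 2000 UMIs were ranked by Gfap, the filament protein of reactive astrocytes, and in each library the third with the most Gfap (Gfap-high) was set against the third with the least (Gfap-low), with 279, 16 and 180 cells per group in replicates 1, 2 and 3. Gfap is not among the 48 genes, and the groups are cuts of a range, not cell types: 281, 17 and 181 cells lay between them. Vim, a filament protein that rises with Gfap, was higher in Gfap-high cells (log2 change 1.88 ± 0.16 (SE), edgeR adjusted p = 7e-06).

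Of the 48 genes 47 were tested, 4 were higher in Gfap-high cells and none was lower, where 3.03% of 9886 genes were higher and 2.85% lower. Sqstm1 had 167, 234 and 192 CPM in Gfap-high cells, against 112, 124 and 131 in Gfap-low cells (log2 change 0.63 ± 0.14 (SE), edgeR adjusted p = 0.014). Gabarap had 362, 340.4 and 439 in Gfap-high cells, against 238, 124 and 322 in Gfap-low cells (log2 change 0.67 ± 0.15 (SE), edgeR adjusted p = 0.0189). For Sqstm1, Gabarap and Rab7 the 3 Gfap-high values lay above the 3 Gfap-low values. Rab7 had 168, 154 and 171 in Gfap-high cells, against 119.5, 124 and 112 in Gfap-low cells (log2 change 0.56 ± 0.14 (SE), edgeR adjusted p = 0.0261). Ulk2 had 55.3, 46.7 and 35.7 in Gfap-high cells, against 26.6, 24.8 and 26 in Gfap-low cells (log2 change 0.82 ± 0.22 (SE), edgeR adjusted p = 0.0418), without overlap as well.

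Atg9a, a gene of membrane supply, went the other way in every library without passing, at 21.4, 26.7 and 25.4 CPM in Gfap-high cells, against 40.9, 57.9 and 36.6 in Gfap-low cells (log2 change -0.72 ± 0.22 (SE), edgeR adjusted p = 0.0722). Map1lc3b had 385, 307 and 394 in Gfap-high cells, against 259, 273 and 356 in Gfap-low cells (log2 change 0.36 ± 0.14 (SE), edgeR adjusted p = 0.153), and did not pass either. Of the second list 1 gene passed: Pink1 had 266, 274 and 270.1 in Gfap-high cells, against 149, 107 and 182 in Gfap-low cells (log2 change 0.80 ± 0.14 (SE), edgeR adjusted p = 0.00475).

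Gfap-high cells were also deeper, with median UMIs of 6364, 8375.5 and 12021.5 in replicates 1, 2 and 3, against 5164, 5628 and 6622 in Gfap-low cells. When cells were thinned to 2000 UMIs each, 24 of the 48 genes were tested and none passed. None passed without replicate 1 (41 tested) or without replicate 3 (42 tested), while 8 passed without replicate 2 (48 tested). Over all genes, Gfap included, 77 of 5488 were higher and 95 lower with thinned cells. Without replicate 1, 14 of 8213 were higher and 5 lower. Without replicate 3, these counts were 34 and 25 of 8563. Without replicate 2, they were 629 and 596 of 10200. The dissociation list stood at 4173, 7268 and 1702 CPM in Gfap-high cells, against 2548, 1860 and 2008 in Gfap-low cells. Microglia markers stood at 54.3, 80.1 and 53.5 in Gfap-high cells, against 168, 141 and 99.95 in Gfap-low cells, and endothelial markers at 31, 80.1 and 21.8, against 55.1, 165 and 75.3, both lower in Gfap-high cells in every library. Pericyte markers stood at 11.0, 6.67 and 8.02 in Gfap-high cells, against 9.29, 513 and 47.2 in Gfap-low cells. Their part in the differences was not tested.

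**Figure D5:**
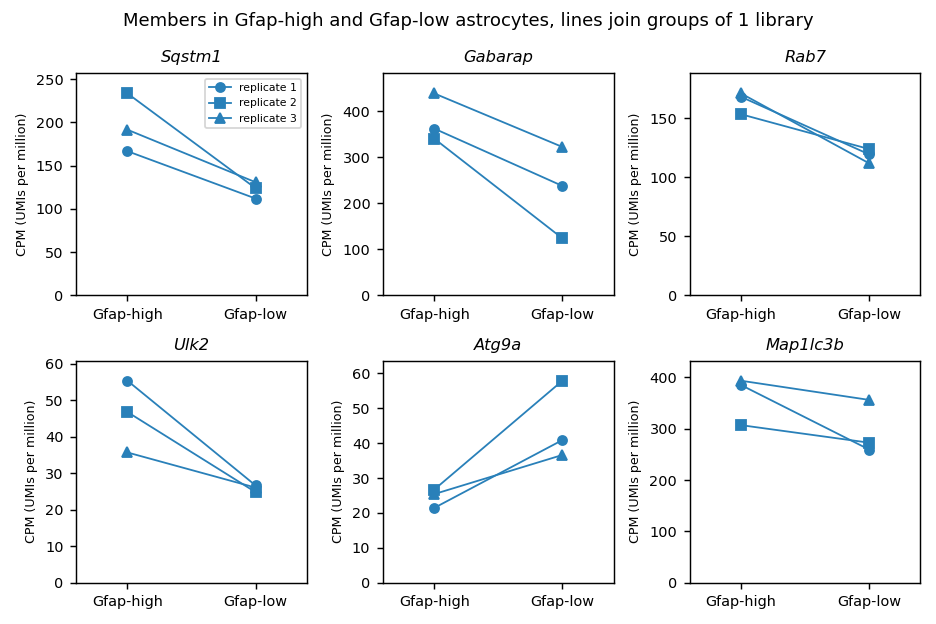
CPM of 6 of the genes in Gfap-high and Gfap-low astrocytes, 1 line per library. Sqstm1, Gabarap, Rab7 and Ulk2 are higher in Gfap-high cells in all 3 libraries and passed the test, while Atg9a is lower in all 3 and Map1lc3b higher in all 3 without passing.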

How the data were processed

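The authors deposited raw UMI counts per gene and barcode. The submitters' processing notes name Cell Ranger, without a version, and mm10. Barcodes were kept with at least 500 UMIs, 300 genes and at most 20% mitochondrial UMIs; Scrublet (scanpy 1.11.5, assumed rate 0.06, seed 1) removed 331 of 12431. Counts were summed per library and class (at least 10 cells) and tested with edgeR 4.0.16 in R 4.3.3 over 17 profiles (quasi-likelihood test, TMM, filterByExpr, library as a block, because classes of 1 library share its preparation), with Benjamini-Hochberg adjustment over all 12525 genes and a threshold of 0.05. All 48 members passed the filter; Gfap groups were fitted alike on 6 profiles, where Atg4a did not pass. The test was run on simulated summed counts with planted changes. Of 100 genes changed 2-fold, it recovered 80 for astrocytes against the other classes and 24 between Gfap groups. Of 100 changed 4-fold, it recovered 100 and 92. Changes were planted only in genes above a limit on expected counts, with the same spread for all genes and no other class or library effect. Recovery for genes of few UMIs or in the smaller classes was not simulated. The median member had 11 UMIs in all pericytes and 25 in all ependymal cells. DESeq2 1.42.0 and the other settings are alternatives. Named members are, per class, the 4 largest and 4 smallest changes called with 1 sign in every library, plus 20 core members; others named were chosen after their values were seen. Members and lists were chosen with earlier results of these data known. Gene positions are from GENCODE M21, 1-based.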

Additional observations from a re-analysis of the deposited data

How the results depend on the processing

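Calls for Vps18, Vamp8, Uvrag, Optn, Atg5, Gabarap and Sqstm1 in microglia, for Vamp8, Sqstm1, Uvrag, Ulk1 and Becn1 in endothelial cells, for Wipi1 and Atg9a in astrocytes, for Map1lc3a in ependymal cells and for Vamp8, Sqstm1, Gabarap and Atg9a in OPCs kept direction and threshold under all 15 settings, except that Optn and Ulk1 were not tested with thinned cells. Pericyte and ependymal calls rest on few cells.

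Counts of members called moved by over 1.5 times as follows, and the cause was not tested. With cells thinned to 2000 UMIs, only 27 members reached the filter on low counts in the class contrasts (48 in the report). Between Gfap groups 24 did (47). Called were 13 members in endothelial cells (21 in the report), 8 in astrocytes (14), 15 in microglia (26) and 9 in ependymal cells (15). There were 1 in pericytes (7), 6 in OPCs (12), 22 among the 6 classes (40) and 0 between Gfap groups (4). These counts are thus out of fewer members than those in the report. The stricter cell filter gave 8 in astrocytes and 2 between Gfap groups. With any 2 of 3 markers there were 2 in pericytes and 1 between Gfap groups, and with barcodes holding 2 or more markers of another class left out 9 in ependymal cells, 2 in pericytes and 1 between Gfap groups. Barcodes with all ependymal and all astrocyte markers, counted as ependymal (chosen after seeing the data), gave 24 in ependymal cells. Of these 13 were higher and 11 lower (4 and 11 in the report), where 4336 and 2705 of 13130 genes were. In pericytes RLE scaling gave 4, DESeq2 4, no scaling factor (chosen after seeing the data) 2, and leaving out mitochondrial, ribosomal protein and haemoglobin genes 3. DESeq2 gave 2 between Gfap groups.

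Leaving out 1 replicate in turn gave 8 to 12 members called in astrocytes (8 without replicate 1, 9 without replicate 3), 2 to 14 in ependymal cells (2 without replicate 3, which leaves 1 ependymal library, assumed to vary like the other classes), 1 to 2 in pericytes, 5 to 9 in OPCs (5 without replicate 1) and 0 to 8 between Gfap groups (0 without replicate 1 or 3, 8 without replicate 2).

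Libraries were a block by design, since classes and Gfap groups of 1 library share its preparation. With no replicate block, 0 members were called between Gfap groups, where 22 of 9887 genes (Gfap included) were higher and 5 lower. The other counts stayed within 1.5 times. Lost were 11 named calls, among them Sqstm1 in astrocytes, Gabarapl1 in ependymal cells and Map1lc3a in pericytes.

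With no scaling factor 4 named changes turned sign: Becn1 in microglia to -0.037, Tax1bp1 in microglia to -0.64, Map1lc3b in OPCs to 0.16 and Rab7 in OPCs to 0.092. Tax1bp1 in microglia was not called with TMM and was called lower with no scaling factor, and the others were not called there.

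The summed level moved by more than its SD where mitochondrial, ribosomal protein and haemoglobin genes were left out of the total, which raises every share: to 4226 CPM in endothelial cells, 3089 in astrocytes, 3591 in microglia, 4428 in ependymal cells, 3529 in pericytes and 3567 in OPCs. The stricter filter gave 2902 in astrocytes, 3984 in ependymal cells and 3204 in OPCs. In ependymal cells and OPCs any 2 of 3 markers gave 4079 and 2974, leaving out barcodes with markers of another class 4197 and 3059, and thinning 4045 and 3007. With the barcodes of both marker sets counted as ependymal the ependymal level was 3658.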
